A study of Homo sapiens with 6 samples.

Results

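The regions described here were 3058 distal H3K27ac peaks found in both libraries of the acute myeloid leukemia (AML) line Kasumi-1 and in neither library of the AML line MV4-11. They were chosen by their presence or absence in 4 peak lists: a peak of control Kasumi-1 cells on chromosomes 1 to 22 and X had to share at least 1 base with a peak of Kasumi-1 cells after ANP32B knockdown and none with any MV4-11 peak. It also had to lie outside the 2500 bases on each side of the canonical transcription start of every protein-coding gene. They made up 22.4% (95% interval 21.7 to 23.1) of the 13646 distal peaks of control Kasumi-1, which had 22724 peaks in all on these chromosomes. The 4 lists together held 96832 peaks. For comparison, 7053 distal peaks of control Kasumi-1 overlapped peaks in all 4 lists (common distal peaks), and 4294 distal peaks of control MV4-11 were present in both MV4-11 lists and neither Kasumi-1 list (MV4-11 only distal peaks).

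H3K27ac had been mapped with CUT&Tag, a method that brings a transposase to antibody-bound chromatin so that DNA is tagged where the mark lies. Each line had an NC group and a knockdown group (sh-ANP32B), the NC cells being labelled untreated, while the study's methods give a control hairpin for its NC cells. The methods describe hairpins delivered by lentivirus with puromycin selection, which the NC cells then share, and merging of replicate reads before peak calling. Each group therefore had 1 peak list and no replicate check, the line and its libraries cannot be told apart, and no p-value is given. The lists gave peak positions without heights, so the depth behind each peak was unknown and width in bases was the measurement. Kasumi-1 peaks had a median width of 1045 bases under NC and 980 after knockdown, and MV4-11 peaks 815 and 742. The narrowest peaks had 357, 354, 289 and 275 bases in the same order. Intervals are Wilson intervals for shares and order-statistic intervals for medians, cover counting over peaks alone, and treat neighbouring peaks as separate although they share a library.

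Kasumi-1 carries the t(8;21) translocation that fuses RUNX1 to RUNX1T1, and MV4-11 carries a KMT2A fusion and an internal duplication in FLT3. The labels were checked against genes typical of each rearrangement. CD34, a surface protein of blood progenitors that is typical of t(8;21) AML, had a promoter peak in both Kasumi-1 lists, with 180 and 132 promoter bases covered under NC and sh-ANP32B, and in neither MV4-11 list. No list had a peak at the canonical promoter of POU4F1 or KIT, other genes usually active in t(8;21) AML. The promoter of HOXA9, a gene usually active with KMT2A fusions and low in t(8;21) AML, was covered over 4335 and 4707 bases in the libraries labelled Kasumi-1 and over 769 and 659 in MV4-11. HOXA10 ran the same way, with 5001 bases in each Kasumi-1 library against 2648 and 1638. These promoters thus ran partly against the label, and Kasumi-1 is used below as the name the libraries carry. The promoter of ANP32B was marked in all 4 lists, which does not check a knockdown that acts on RNA.

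H3K27ac is placed by the acetyltransferases p300 and CBP and marks active promoters and enhancers. Distal enhancers differ more between cell types than promoters do, because the transcription factors of a cell decide which of them are open. In myeloid progenitors such factors include RUNX1, the ETS factors, the CEBP family, GATA2, MYB and the E-proteins TCF3 and TCF12. RUNX proteins bind the core TGTGGT or TGCGGT, and E-proteins bind E-boxes such as CAGCTG and CAGGTG. The RUNX1 fusion protein of t(8;21) AML is known to assemble with E-proteins and the adaptor LMO2.

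The central 300 bases of 4 of the peaks are shown to let their sequence be read beside the counts of matches given below. They are the plus strand of hg38, and capitals mark an E-box (CAGCTG, or CAGGTG with its reverse complement CACCTG). NEK6, IRF8 and TRIM7 name the nearest genes of peaks with large mean width. These 3 were picked by gene name from such peaks, so the windows are not a sample of the regions. The RUNX1 window lies in the gene that the translocation breaks, and it was chosen after its values were seen.
NEK6, intron 1, chr9:124299443-124299742: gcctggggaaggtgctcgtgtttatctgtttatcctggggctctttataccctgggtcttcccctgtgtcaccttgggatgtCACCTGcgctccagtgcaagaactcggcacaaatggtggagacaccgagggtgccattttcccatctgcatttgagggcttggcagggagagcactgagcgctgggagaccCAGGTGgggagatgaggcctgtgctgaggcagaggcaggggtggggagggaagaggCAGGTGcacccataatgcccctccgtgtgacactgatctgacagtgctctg
IRF8, intron of a noncoding gene downstream, chr16:85926198-85926497: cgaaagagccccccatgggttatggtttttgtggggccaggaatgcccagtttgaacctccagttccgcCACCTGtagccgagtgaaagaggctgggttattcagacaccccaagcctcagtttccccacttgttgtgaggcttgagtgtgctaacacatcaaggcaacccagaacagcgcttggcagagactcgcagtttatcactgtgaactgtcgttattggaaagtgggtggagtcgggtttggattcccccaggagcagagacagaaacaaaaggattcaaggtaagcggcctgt
TRIM7, intron of LINC01962, chr5:181189894-181190193: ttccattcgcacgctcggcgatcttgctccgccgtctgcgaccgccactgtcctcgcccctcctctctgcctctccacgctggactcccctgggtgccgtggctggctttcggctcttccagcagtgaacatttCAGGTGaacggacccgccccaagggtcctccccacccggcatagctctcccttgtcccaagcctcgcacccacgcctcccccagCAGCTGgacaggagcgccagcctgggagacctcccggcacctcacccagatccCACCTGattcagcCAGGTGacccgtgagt
RUNX1, intron 5, chr21:34864043-34864342: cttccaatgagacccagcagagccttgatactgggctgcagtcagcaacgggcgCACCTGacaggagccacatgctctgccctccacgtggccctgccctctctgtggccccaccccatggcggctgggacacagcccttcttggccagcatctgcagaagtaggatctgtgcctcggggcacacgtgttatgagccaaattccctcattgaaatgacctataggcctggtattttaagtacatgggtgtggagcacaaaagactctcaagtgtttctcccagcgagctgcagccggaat
The NEK6 window held 3 E-boxes, the TRIM7 window 4, and the IRF8 and RUNX1 windows 1 each. None of the 4 held a RUNX core. Over all regions 51.4% of the windows held an E-box and 28.2% a RUNX core.

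The regions were narrow. Their median width under NC was 603.5 bases (590 to 623), with 10% below 392 and 10% above 1332, against 1254 (1218 to 1283) for common distal peaks and 721 (707 to 736) for MV4-11 only distal peaks. The narrowest had 357 bases, the limit of the list, and the widest 5589. Together they covered 2.33 Mb. A width of at least 1000 bases was reached by 640 of them, or 20.9%, against 60.1% of the common and 29.4% of the MV4-11 only distal peaks. Among distal peaks of control Kasumi-1 that were also found after knockdown and were ranked by width, the Kasumi-1 only share fell from 44.8% of the narrowest peaks (357 to 504 bases) to 3.52% of the widest (1900 bases or more), while the common share rose from 31.4% to 89.4%. A narrow peak also offers fewer bases in which to overlap a peak of another list, and the part of this in the shares was not tested.

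**Figure D1:**
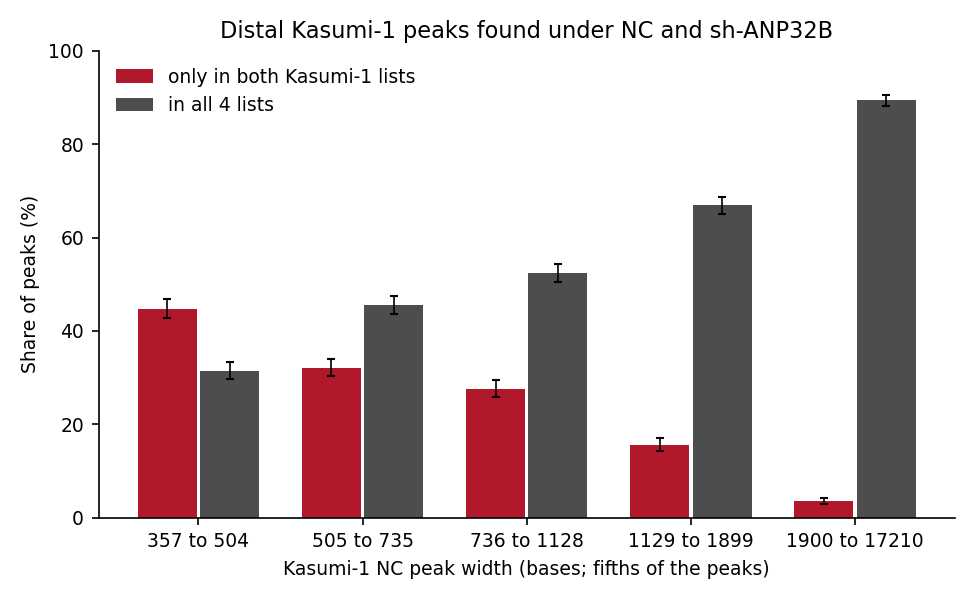
Share of distal Kasumi-1 peaks (y, percent, with Wilson 95% intervals) found only in both Kasumi-1 lists (red) or in all 4 lists (grey), in 5 groups of equal size by control width (x, bases). The red bars fall from 44.8% to 3.52% and the grey bars rise from 31.4% to 89.4% with width.

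At the limits of the rule the choice turned on few bases. The smallest overlap of a chosen peak with a knockdown peak was 3 bases, and the nearest peak left out for want of such an overlap lay 9 bases from one (chr20:49891108-49891549). The CD34 intron 1 peak (chr1:207905084-207905504) ended where an MV4-11 peak began, with 0 bases between, and 150 chosen peaks had fewer than 100 bases to an MV4-11 peak. On the other side, a peak at chr10:110425364-110425723 was left out for an overlap of 1 base, and 204 were left out for overlaps under 100 bases. At the promoter limit, a peak 2502 bases from a canonical start was included (chr22:43154061-43154874) and one at 2500 was not (chr11:63684000-63684410).

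The regions were grouped by distance to the nearest MV4-11 peak, which is a description, because the rule had excluded overlap with such peaks. The median distance was 2422 bases (2198 to 2746). Of the regions, 1042 (34.1%) lay under 1 kb from an MV4-11 peak, 1138 (37.2%) at 1 to 10 kb, 744 (24.3%) at 10 to 100 kb and 134 (4.38%) at 100 kb or more. Distal control Kasumi-1 peaks were joined into domains at the distance customary for stitching enhancers. Of the regions under 1 kb from an MV4-11 peak, 77.5% shared a domain with a Kasumi-1 peak that overlapped an MV4-11 peak, and 17.0% were alone in their domain. At 10 kb or more, 7.18% of 878 shared such a domain and 73.1% were alone. The fall follows in part from the grouping, because peaks are joined only within the stitching distance. In all, 1677 regions (54.8%) shared a domain with a peak that MV4-11 also had, and 1321 (43.2%) were in the 1173 domains made of Kasumi-1 only peaks, 120 of which had at least 2.

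The closest regions were also the narrowest. A wide peak close to an MV4-11 peak is more likely to overlap it and be left out, so the rule itself favours this. Median width was 523 bases under 1 kb from an MV4-11 peak and 727.5 (690 to 772) at 10 kb or more. Under 1 kb, the matching knockdown peak was wide enough to reach an MV4-11 peak in 198 cases (19.0%), against 37 (3.25%) at 1 to 10 kb and 0 of 878 beyond, which allows a share of up to 0.436% (Wilson). To reach it a peak must span the distance, so a fall with distance is built in. Over all regions the knockdown peak overlapped an MV4-11 peak in 235 (7.68%). In these the control peak was absent from MV4-11 while its partner was not.

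**Figure D2:**
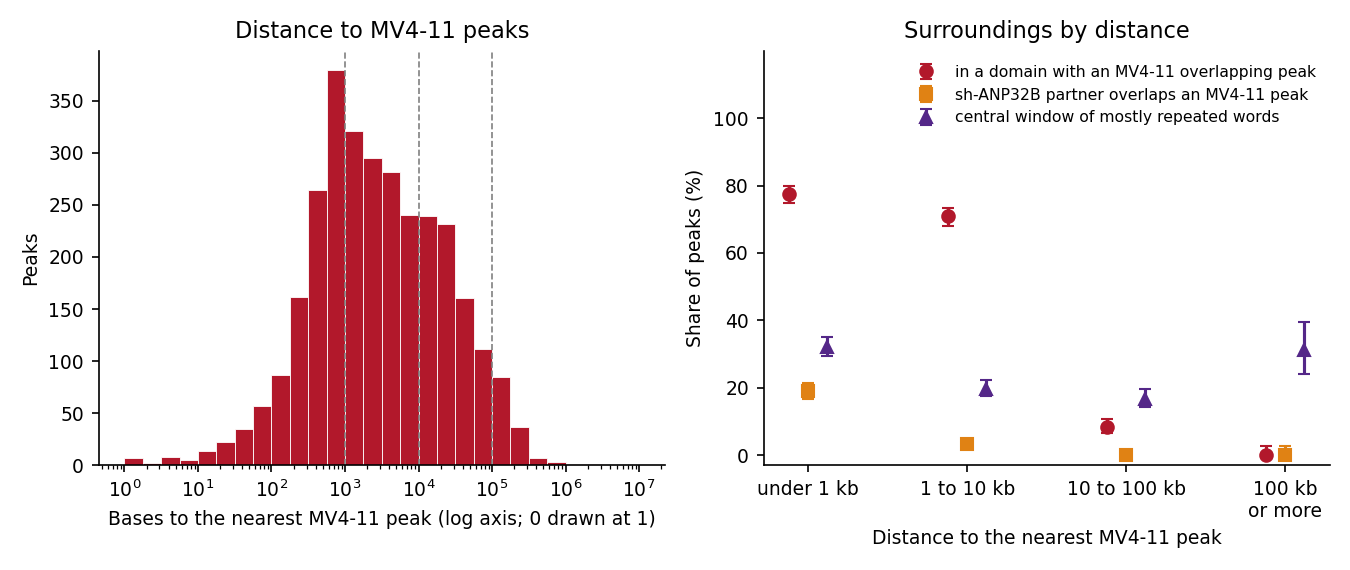
Left, number of Kasumi-1 only distal peaks by distance to the nearest MV4-11 peak (bases, log axis, dashed lines at 1, 10 and 100 kb). Right, share of them (percent, Wilson 95% intervals) in a domain with a peak that overlaps MV4-11, with a knockdown partner that overlaps MV4-11, or with a mostly repeated central window, in 4 distance groups. The first share is 77.5% under 1 kb and 8.47% at 10 to 100 kb.

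The ANP32B knockdown comparison asked whether acetylation at these regions became narrower or wider in Kasumi-1. Presence in both lists was part of the rule, so no loss could be seen, and width is a description of peaks already chosen as kept. Of the regions, 2826 matched a single knockdown peak that matched no other control peak. Their median width was 603.5 bases under NC and 659 under sh-ANP32B, and the median log2 ratio of widths was 0.07 (0.056 to 0.087). At a 1.5-fold limit 174 (6.16%) were narrower after knockdown, where 5.74% of all matched Kasumi-1 peaks were, and 300 (10.6%) were wider, where 5.84% were. Common distal peaks had a median of 0.04, with 2.75% narrower and 6.01% wider. These shares were not at like width. The median NC width was 1200 bases for matched common distal peaks and 1111.5 for all matched peaks. With 1 library in each group these differences have no replicate error to be set against.

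The change followed control width. That width is also the denominator of the ratio, so a fall of the ratio with width is in part built in. Regions under 500 bases had a median log2 ratio of 0.18 (0.16 to 0.20) and common distal peaks of that width 0.16 (0.13 to 0.19). None of the 987 could be 1.5-fold narrower, because the knockdown list had no peak under 354 bases. From 500 to under 1000 bases the medians were 0.05 and 0.07. From 1000 to under 2000 bases they were -0.02 (-0.045 to 0.001) and 0.03, and 15.9% of the 516 Kasumi-1 only peaks were 1.5-fold narrower against 5.30% of common ones. At 2000 bases or more the 62 Kasumi-1 only peaks had -0.02 (-0.17 to 0.003), and 7 of them (11.3%) were narrower against 0.945% of common ones. Under 500 bases, 18.3% of Kasumi-1 only and 15.2% of common peaks were 1.5-fold wider. These shares were 8.09% and 9.58% from 500 to under 1000 bases, and 3.29% and 4.20% from 1000 to under 2000. At 2000 bases or more they were 0% and 0.354%. The widening over all regions therefore lay among the narrow ones, and the part of knockdown in it was not tested.

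**Figure D3:**
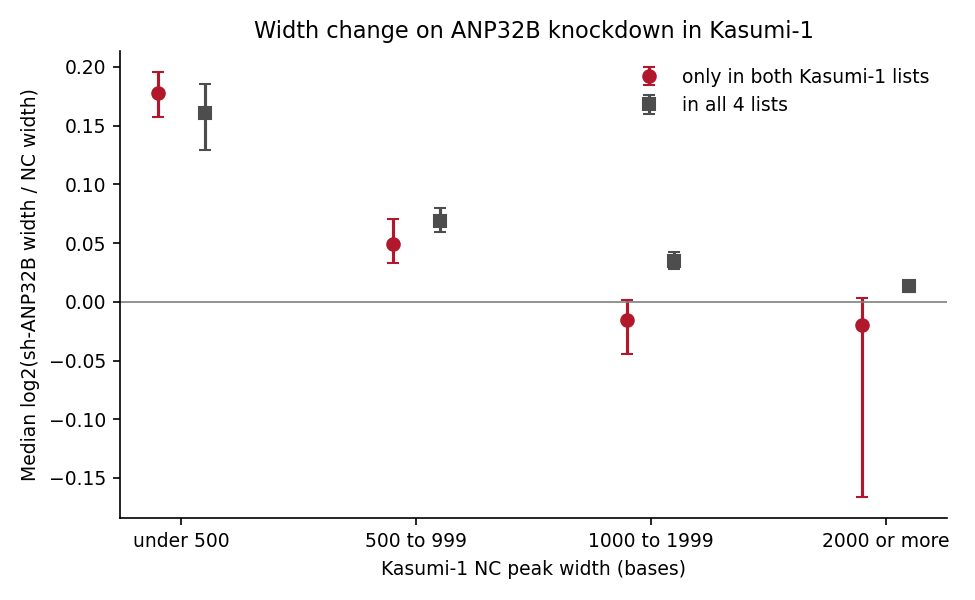
Median log2 ratio of knockdown to control width in Kasumi-1 (y, with order-statistic 95% intervals) by control width (x, bases), for Kasumi-1 only (red) and common (grey) distal peaks. Both start at 0.18 and 0.16 under 500 bases, and from 1000 bases the red medians lie at -0.02 while the grey ones stay above 0.

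Most of the regions lay in gene bodies. The middle base was in an intron for 60.1% (58.4 to 61.9), between genes for 28.6% and in an exon for 11.2%, against 64.0%, 24.2% and 11.8% of common distal peaks. An intron of a protein-coding gene held 48.5%. The rule set aside canonical starts alone, and 8.01% lay within 500 bases of another protein-coding transcript start and 6.67% within 500 bases of a long noncoding RNA start, against 12.01% and 9.64% of common and 5.92% and 3.40% of MV4-11 only distal peaks. The median distance to the nearest canonical start was 26838 bases, against 31669 for common and 43650 for MV4-11 only distal peaks. A distance of 100 kb or more was found for 15.4%, against 27.7% of MV4-11 only distal peaks.

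Across chromosomes the Kasumi-1 only share of distal peaks ran from 16.8% on chromosome 21 to 31.03% (26.2 to 36.3) on X, with 27.1% on 19 and 25.8% on 16. The value for X rested in part on the first pseudoautosomal region, the end of X that pairs with Y. There 22 of 29 distal peaks (75.9%, 57.9 to 87.8) were Kasumi-1 only, against 77 of 290 (26.6%) on the rest of X. This region held 42 peaks in control and 51 in knockdown Kasumi-1, and 28 and 17 in MV4-11. The sequence of this region is the same on X and Y, and the part of read placement in these counts was not tested.

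Repeated sequence was more frequent at these regions. In 728 of them (23.8%, 22.3 to 25.3) more than 50% of the 31-base words of the central 300 bases occurred at another place in the genome, against 17.3% of common and 7.06% of MV4-11 only distal peaks. Below 500 bases of width the share was 31.1%, against 29.5% of common peaks of that width. From 500 to under 1000 bases it was 22.8% against 25.4%, and from 1000 to under 2000 it was 13.9% against 11.1%. At 2000 bases or more it was 9.72% against 11.5%. By distance to an MV4-11 peak it was 32.2% under 1 kb, 19.8% at 1 to 10 kb, 16.8% at 10 to 100 kb and 31.3% for the 134 at 100 kb or more. Words were counted on both X and Y, so windows in the pseudoautosomal region, which is the same on both, count as repeated by construction. Reads from copied sequence can be placed at the wrong copy, so peaks with mostly repeated windows are less certain, and the motif shares below are also given without them.

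The regions were GC-rich, and this separated them from the MV4-11 only peaks more than from the common ones. Median GC content was 52.8% (52.7 to 53.0), against 52.0% in common and 41.8% in MV4-11 only distal peaks. The ratio of observed to expected CpG was 0.30, 0.28 and 0.17 in the same order. At least 50% GC with a CpG ratio of at least 0.6, the usual limits of a CpG island, was met by 8.63%, against 4.96% and 0.419%. All distal peaks of the control libraries differed in the same direction, with 52.4% in Kasumi-1 and 47.5% in MV4-11, so GC content moved with the library and its part in any sequence difference between the lines was not tested beyond the GC-limited shares below.

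Sequence was searched on both strands of the central 300 bases for short words bound by blood factors. RUNX (TGTGGT or TGCGGT) was matched in 28.2% (26.7 to 29.8) of the regions, 29.7% of common and 28.6% of MV4-11 only distal peaks, and in 19.6% of 35116 RefSeq promoters of 300 bases (GRCh38.p14). The 3 peak classes thus had like RUNX shares, and Kasumi-1 only peaks were not higher. The E-box (CAGCTG or CAGGTG) was matched in 51.4% (49.7 to 53.2) of the regions, above 45.6% (44.5 to 46.8) of common and 24.8% of MV4-11 only distal peaks, and in 34.5% of promoters. The SP1 word (GGGCGG) was matched in 17.2%, 15.5% and 3.35% of the 3 classes and in 44.95% of promoters.

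Words of the other factors searched were less frequent in the regions than in the MV4-11 only peaks, apart from MEIS, which was close in both. The CEBP word (TTNCNNAA) was matched in 35.1% of the regions, 38.7% of common and 66.1% of MV4-11 only distal peaks, and in 36.8% of promoters. AP-1 (TGANTCA) was matched in 8.04%, 11.8% and 21.1% in the same order, and in 7.71% of promoters. The word of GATA factors (AGATAA) was matched in 7.59%, 8.90% and 19.9%, and in 10.3% of promoters. MYB (AACGG or AACTG) was matched in 46.0%, 49.5% and 62.3%, and in 52.4% of promoters. ETS (CGGAAG or AGGAAG) was matched in 37.1%, 41.5% and 43.6%, and in 46.9% of promoters. The PU.1 word (GAGGAAGT), which contains an ETS word, was matched in 2.39%, 3.49% and 5.43%, and in 2.59% of promoters. NFY (CCAAT) was matched in 24.9%, 25.3% and 35.3%, and in 34.6% of promoters. MEIS (TGACAG) was matched in 20.8%, 20.9% and 19.6%, and in 15.8% of promoters, and HOX with PBX (TGATTNAT) in 1.83%, 2.04% and 5.54%, and in 2.82% of promoters. A match is a word in a window and not a bound site.

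Leaving out windows of mostly repeated words kept the E-box order. It was then matched in 49.6% (47.6 to 51.6) of 2330 regions, 43.9% (42.6 to 45.2) of 5830 common and 24.8% of 3991 MV4-11 only distal peaks. In windows of 45 to 55% GC among these, the shares were 50.2%, 43.3% and 33.7%, so the gap to MV4-11 only peaks was smaller at like GC content. At this GC content RUNX was at 29.1%, 29.3% and 30.9%, CEBP at 43.4%, 46.1% and 57.2%, AP-1 at 10.2%, 13.4% and 21.9%, GATA at 9.02%, 10.8% and 14.7%, and ETS at 39.0%, 43.0% and 50.6%. ETS moved most with repeats, from 37.1% to 43.6% of the regions when repeated windows were left out.

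**Figure D4:**
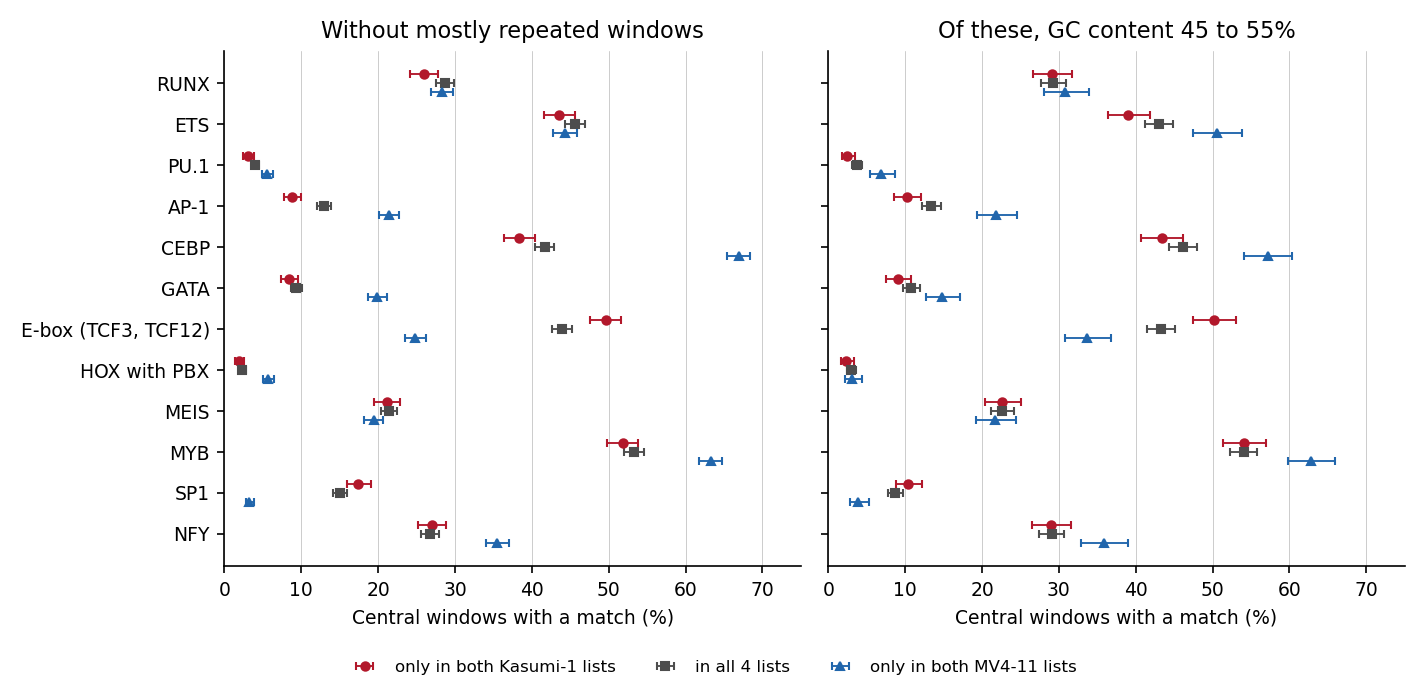
Share of central 300-base windows with a match (x, percent, Wilson 95% intervals) for 12 factor words in Kasumi-1 only (red), common (grey) and MV4-11 only (blue) distal peaks, without mostly repeated windows (left) and of these at 45 to 55% GC (right). Red is highest for the E-box (49.6% left, 50.2% right) and blue for CEBP and AP-1, while RUNX is close in all 3.

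The words differed with distance to MV4-11 peaks. The E-box was matched in 56.0% (52.9 to 58.9) of regions under 1 kb from an MV4-11 peak and in 46.0% (42.7 to 49.3) of those at 10 kb or more, near the 45.6% of common distal peaks. ETS ran the other way, from 29.9% to 42.5%, and SP1 from 12.9% to 25.4%. RUNX was matched in 30.6% and 26.9%, with overlapping intervals. By width the E-box share was 53.1% under 500 bases and 53.1% from there to under 1000, 43.5% from 1000 to under 2000 and 58.3% for the 72 of 2000 bases or more, against 48.8%, 49.2%, 41.5% and 45.2% of common peaks, with no steady trend.

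Each region was assigned to the protein-coding gene with the nearest canonical start, a choice by distance that does not show regulation. Of 19970 genes, 2091 (10.5%) had at least 1 region, of which 1508 had 1, 356 had 2, 188 had 3 or 4 and 39 had 5 or more. Of the 227 genes with at least 3, 128 had no MV4-11 only distal peak, against 15819 of the 17879 genes without a region. Among all genes 13.7% had such a peak, so genes with at least 3 regions had one more often. Genes with regions more often had a marked promoter: 42.3% of genes without a region had a promoter peak in both Kasumi-1 lists, 61.7% of those with 1, 68.3% of those with 2 and 70.9% (64.7 to 76.4) of those with at least 3. The promoter was also more often marked in control MV4-11, at 33.9% without a region, 51.1% with 1 and 59.5% with at least 3. A promoter peak in both Kasumi-1 lists and neither MV4-11 list was found for 11.1% of genes with 1 region and 11.0% (7.57 to 15.8) of those with at least 3, near the 9.74% of all genes. The reverse, in MV4-11 alone, was found for 0.862% and 0.441%, against 0.566% of all genes. A group of 595 genes had a region at least 10 kb from any MV4-11 peak and beyond the stitching distance from the gene start. Of these, 14.1% (11.5 to 17.1) had a Kasumi-1 only promoter. For the 844 genes with a region under 1 kb from an MV4-11 peak the share was 8.77% (7.04 to 10.9). Only the first group was limited by distance to the start. In the other, the nearby MV4-11 peak can itself lie in the promoter window, which precludes a Kasumi-1 only promoter. The part of this in the difference was not tested.

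The genes with most regions by nearest start included regulators of blood cells. IRF8, a transcription factor of monocytes and dendritic cells, had 7. SIRPA, the myeloid receptor for CD47, had 7, and so had BCOR, a corepressor of a Polycomb complex that is mutated in AML. ZBTB16, a factor known from its fusion to RARA in promyelocytic leukemia, had 6. IRF2, an interferon-regulated transcription factor, had 6, as did NFATC2, a calcium-regulated transcription factor, and JARID2, a cofactor of Polycomb repressive complex 2. FGFR1, a receptor tyrosine kinase, had 5. The others of the 20 were TPTE with 9, KANK4 with 8, BCL2L13 and TTC7B with 7, ASMTL, UQCRFS1, TOMM20, SHOX, GOLGA8N, SIPA1L3 and EFCAB2 with 6, and an unnamed gene (ENSG00000289764) with 6. All 9 regions at TPTE and all 6 at GOLGA8N had mostly repeated central windows, so their place is uncertain. All 6 each at ASMTL and SHOX had them too, but these lie in the pseudoautosomal region. There the Y copy makes every window repeated by construction, and X and Y cannot be told apart. None of the regions at SIRPA, BCOR, IRF8, TTC7B, ZBTB16, TOMM20 and UQCRFS1 had a mostly repeated window. The nearest start was distant for some genes. Regions lay 237477 to 366804 bases from the start of BCOR, 154647 to 363300 from that of JARID2 and 2863016 to 5504150 from that of TPTE. Those of IRF8 lay within 76731 bases and those of KANK4 within 52495. Distal peaks of the other classes also lay at the regulators named first. Common and MV4-11 only distal peaks numbered 17 and 3 at JARID2, 7 and 2 at NFATC2 and 6 and 1 at ZBTB16. The counts were 5 and 1 at BCOR, 3 and 1 at IRF2 and 7 and 0 at IRF8. At SIRPA they were 4 and 0, and at FGFR1 1 and 0.

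The promoters of these genes were marked unevenly. No list had a peak at the canonical promoters of KANK4, BCOR, TTC7B, ZBTB16, TPTE and SHOX. SIRPA had 5001 promoter bases covered in each Kasumi-1 library and 4098 and 3198 in MV4-11 NC and sh-ANP32B. IRF2 had 3044 and 3144 in Kasumi-1 against 1128 and 979. IRF8 had 357 in control Kasumi-1 and 0 in the other 3.

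KANK4, which encodes a scaffold protein of the actin cytoskeleton, held the cluster with most regions (regions joined at the same stitching distance). Its 8 regions lay in introns 1, 3, 4 and 5 over 23566 bases (chr1:62266086-62289651). From the 3′ end of the gene their control widths were 1708, 920, 712, 2671, 747, 568, 601 and 407 bases. After knockdown the first pair was joined in a peak of 3247 bases, and the others had 801, 3037, 882, 611, 830 and 393 bases. In total 8334 bases were covered under NC and 9783 under sh-ANP32B. MV4-11 had a single peak of 353 bases under NC and none under sh-ANP32B, and it overlapped none of the 8. KANK4 had no common and no MV4-11 only distal peak, and 1 of its 8 regions, the widest, had a mostly repeated window.

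At IRF8 the regions lay among peaks of both lines. They ran from 25640 bases upstream to 76731 bases downstream of the start, with control widths of 389, 466, 645, 1065, 561, 543 and 1338 bases in genome order. After knockdown the widths were 453, 640, 482, 11695, 704, 811 and 1178 bases. All 7 had an MV4-11 peak within 2703 bases, and 7 common distal peaks lay at the same gene. The jump from 1065 to 11695 bases (chr16:85925815-85926879) was a joining of the region to its wide neighbour, which overlaps MV4-11 peaks. At KANK4, by contrast, 4 of the 8 regions lay 13915 bases or more from the nearest MV4-11 peak.

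**Figure D5:**
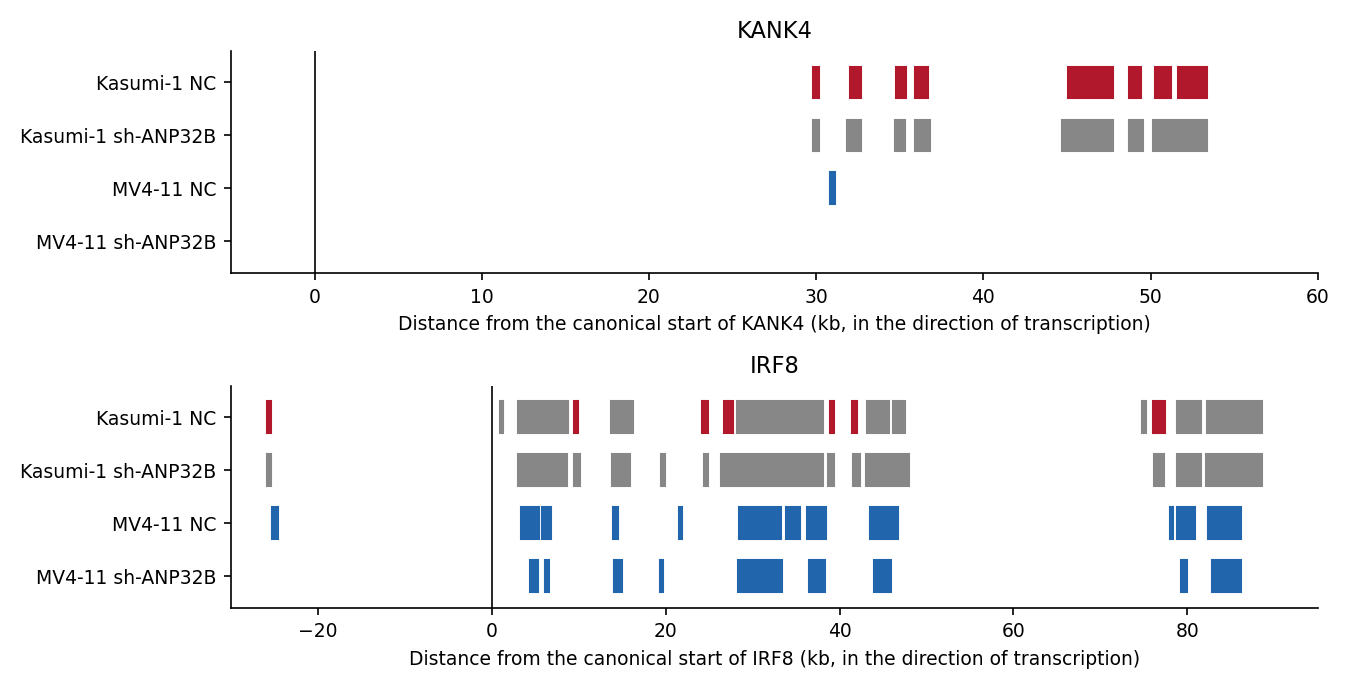
Peaks of the 4 lists at KANK4 and IRF8 by distance from the canonical start (kb, in the direction of transcription). Red marks Kasumi-1 only distal peaks in control Kasumi-1, grey other Kasumi-1 peaks and blue MV4-11 peaks. KANK4 has 8 red peaks and a single blue one, and the 7 red peaks of IRF8 sit beside blue ones.

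Of 2549 clusters, 2144 were single regions and 79 had at least 3, which together held 262 regions (8.57%). The count of 79 was 41 without mostly repeated windows, 35 when joined within 5000 bases, 44 with an overlap of at least 50% of each Kasumi-1 peak, 37 with no MV4-11 peak within 1000 bases, 12 with none within 10000 bases and 2 for control peaks of at least 1000 bases. After KANK4 the largest were 6 regions at P2RY8, a receptor gene of the pseudoautosomal region (chrX:1468194-1494412), 5 at GRAMD4 and CELSR1 (chr22:46577103-46610364), 5 near GOLGA8N (chr15:32533624-32545783) and 4 at KLF2 (chr19:16317029-16343404). The 6 at P2RY8 are the same regions as those counted above for ASMTL, their nearest start. Those near GOLGA8N all had mostly repeated windows, so the place of that cluster is uncertain. The 6 at P2RY8 had them too, but by construction, because the Y copy of their sequence was counted. Their place on X or Y cannot be told apart. KLF2 encodes a factor of quiescence and monocyte function. Its control widths were 477, 981, 805 and 2030 bases and its knockdown widths 513, 976, 868 and 2197, so each changed by under 1.5-fold. Of these 4, 1 had a mostly repeated window.

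Other genes were counted by lists of pathway and lineage, to be read against the 10.5% of all genes with a region. Of 23 transcription factors of blood stem cells, 11 had a region, 22 in all, and the same genes had 24 MV4-11 only distal peaks. RUNX1 had 12 common and 6 MV4-11 only distal peaks beside 4 regions. The control and knockdown widths of these regions were 890 and 960 bases in intron 5, and 410 and 427, 563 and 626, and 542 and 597 in other introns. Of these 4, 1 had a mostly repeated window, and it was not the region in intron 5. IKZF1, the lymphoid and myeloid factor Ikaros, and BCL11A had 3 each. LMO2 had 3, with 590, 681 and 693 bases under NC and 671, 491 and 414 after knockdown. NFE2, a factor of megakaryocytes and erythroid cells, had 2 regions (1392 and 1382 bases for the wider, chr12:54306778-54308169), and its promoter was covered over 1501 and 1140 bases in Kasumi-1 and 0 in both MV4-11 libraries. Of 20 myeloid transcription factors 11 had a region, 21 in all, against 26 MV4-11 only distal peaks of which ZEB2 held 11, with most regions at IRF8, KLF2, ID2 (2) and CEBPA (1, 1439 and 1501 bases, 28759 bases from the start).

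Growth factor receptors had 13 regions at 7 of 20 genes and 5 MV4-11 only distal peaks. IL3RA, the interleukin-3 receptor CD123, had 3, of 505, 1331 and 625 bases under NC and 701, 1225 and 476 after knockdown. All 3 lie in the pseudoautosomal region and had repeated windows, which the Y copy makes so by construction. FLT3, the receptor with the duplication in MV4-11, had 3 narrow ones of 429, 404 and 443 bases, which had 410, 409 and 538 after knockdown. Its promoter was covered over 2028 and 2008 bases in Kasumi-1 against 299 and 0 in MV4-11. IFNGR2 and IL2RA had 2 each.

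Of the 12 genes of t(8;21) AML 4 had a region, namely TRH (2), CD34 (2), PRAME (1) and PAX5 (1), 6 in all, while KIT, POU4F1 and RUNX1T1 had none. The 12 genes also had 7 MV4-11 only distal peaks, at 4 of them. Each class thus reached 33.3% of these genes, where 10.5% of all genes had a region and 13.7% an MV4-11 only distal peak. The classes differ in size, with 3058 and 4294 peaks, and whether the list was richer in either was not tested. The CD34 intron 1 region had 421 bases under NC and 470 after knockdown, and the other 469 and 419. The central window of the intron 1 region was mostly repeated, with 77.8% of its words found elsewhere, so its place is less certain. Of 20 targets of KMT2A fusions 4 had a region, namely FLT3, BCL2 (2), CDK6 (1) and HOXA5 (1), 7 in all. They had 29 MV4-11 only distal peaks at 7 of the 20 genes, of which MBNL1 held 12 and ZEB2 11, where 13.7% of all genes had such a peak.

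Differentiated cell markers had shares on both sides of the 10.5% of all genes, with few genes in each list. There was a region at 1 of 17 neutrophil granule genes (RNASE2), 3 of 20 monocyte markers (FCN1, FCGR1A, ITGAM), 1 of 12 markers of mast cells, basophils and eosinophils (SIGLEC8), 1 of 14 erythroid and megakaryocyte markers (EPOR) and 0 of 14 markers of liver, pancreas, muscle and neurons. Of 18 lymphoid markers 4 had 1 (EBF1, PAX5, CD2, BCL11B). MV4-11 only distal peaks also lay at 4 lymphoid markers, and at 7 monocyte markers and 2 neutrophil granule genes. They lay at 1 marker of liver, pancreas, muscle and neurons and at 0 in the other lists of this paragraph's markers. EBF1 also had 1 MV4-11 only and 2 common distal peaks. The EBF1 region, in intron 4, had 1023 bases under NC and 1024 after knockdown, and the promoter of this B-cell factor was covered over 1515 and 1747 bases in Kasumi-1 and 0 in MV4-11. Of 11 genes shown or followed in the study 3 had regions, MYC (2), BCL2 (2) and CCNB1 (1), the last of 528 bases under NC and 1177 after knockdown.

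The largest mean widths over both libraries came mostly from joining. In 9 of the 10 regions with the largest mean, the knockdown peak overlapped an MV4-11 peak, the control width was 436 to 1401 bases, the knockdown width 8931 to 22120 bases, and an MV4-11 peak lay within 1096 bases. The first was in intron 1 of NEK6, a mitotic kinase (chr9:124298917-124300267), with 1351 bases under NC and 22120 after knockdown. The others were in PDCD6-AHRR, near PRAM1, at IRF8, in TBCD, near CHKA and FAM53B, and a pair in intron 1 of ELF4, an ETS factor. The exception was a peak in an intron of LINC01962, nearest to TRIM7 (chr5:181187249-181192837), of 5589 bases at identical ends in both libraries.

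Among regions at least 10 kb from any MV4-11 peak, the widest, chosen after their values were seen, had like widths in both libraries. A peak in an exon of NTMT1 (chr9:129606972-129611029) had 4058 bases under NC and 4067 after knockdown, and one nearest to ZCCHC14 (chr16:87543597-87547471) had 3875 and a summed 3959. In intron 3 of RUNX2, the osteoblast member of the RUNX family, a peak (chr6:45421516-45424706) had 3191 and 3201. Nearest to TERT, the catalytic subunit of telomerase, a peak (chr5:1312378-1315138) had 2761 and 2921 and lay 161787 bases from the nearest MV4-11 peak.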

How the data were processed

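H3K27ac CUT&Tag had been run in Kasumi-1 and MV4-11 under NC and sh-ANP32B, with 2 IgG libraries not used here. The study's methods give alignment to hg38 by Bowtie2 (2.2.5), merging of replicates by samtools (1.15.1) and peak calling by MACS2 (2.2.7) at q 0.01, while the submitters' processing notes name Bowtie2 (2.4.4) and MACS3 (3.0). The deposited lists hold peak positions (chromosome, start, end), 1 per group, with no score or height, so depth is unknown. How the IgG libraries entered the calls is not given in the sources used here. Peaks were placed by GENCODE 44 on hg38, with canonical starts of protein-coding genes, in Python 3.11.15 (numpy 2.4.6, scipy 1.17.1, pandas 2.3.3), and drawn with matplotlib 3.10.9. The central window had 300 bases, and words of 31 bases, taken every 10 bases, were counted in the hg38 chromosomes. Overlap and matching steps were tested on simulated data. Members, gene lists and tests were chosen with earlier results of these data known. Named were the 20 genes with most regions, the 10 regions with the largest mean width, the 5 clusters with most regions, up to 4 genes per list, and the regions at the limits of the rule. Of the sequences that the mean-width rule gives, 3 are shown, and that of RUNX1 was chosen after its values were seen. Some items are not reported here. Alternatives changed the overlap, promoter window, minimum width, joining distance, motif window and starting list.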

Additional observations from a re-analysis of the deposited data

Results flagged for a closer look

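The median log2 ratio of knockdown to control width was 0.070 for the Kasumi-1 only distal peaks in Kasumi-1 and -0.046 for the MV4-11 only distal peaks in MV4-11, so the medians had opposite signs. With 1 library in each group the difference was not tested. Over all matched peaks the medians were 0.03 in Kasumi-1 and -0.13 in MV4-11.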

How the results depend on the processing

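With 1 list per group, no replicate could be left out. No paired analysis was possible because each group had a single library. Of 64 recomputed values 34 stayed within their interval or 1.5 times their count, 29 moved and 1 reversed. The exclusion of MV4-11 peaks within 10000 bases, of regions whose knockdown partner overlaps an MV4-11 peak and of mostly repeated windows was chosen after seeing the data. For control peaks of at least 1000 bases, 640 regions were left, with a median width of 1320 bases, a median log2 width ratio of -0.016 (reversed from 0.070), 53.8% in introns, GC content of 53.9%, RUNX in 25.6%, a Kasumi-1 promoter peak at 50% of genes with at least 3 regions, and 2 clusters of at least 3 regions. With no MV4-11 peak within 1000 bases, the values were 2016 regions, 671 bases, a ratio of 0.051, 56.4% in introns, GC of 53.7% and 37 clusters. With none within 10000 bases they were 878 regions, 727.5 bases, 50.9% in introns, GC of 54.2%, a promoter peak at 52.2% and 12 clusters. Without mostly repeated windows they were 645 bases, 58.2% in introns, GC of 53.7%, RUNX in 25.9% and 41 clusters. Summing all overlapping knockdown peaks gave a ratio of 0.096. RUNX was matched in 43.0% of central 500-base windows and in 31.8% at 45% to 55% GC. An overlap of at least 50% of each Kasumi-1 peak gave 44 clusters, and joining within 5000 bases gave 35. Other causes of these shifts were not tested.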
